A study of Mus musculus with 12 samples.

Results

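Fat cell genes were followed in mouse heart macrophages that had been sorted after the left anterior descending coronary artery was tied off, a surgical model of myocardial infarction. The 10 genes are Adipoq, Cfd, Lep, Retn, Cidec, Plin1, Fabp4, Cyp2e1, Car3 and Pck1, out of 53801 genes listed in the count table. They were chosen by symbol and selected on measured values of these data: their counts had been seen to be high in the WT CCR2low libraries, and in replicate 3 of that group above all. No threshold was part of the choice. Their levels in WT are therefore given as a description, with no test.

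RNA sequencing covered 12 libraries in 4 groups of 3. Bhlhe41Cre CCR2low and Bhlhe41Cre CCR2hi came from mice labelled Bhlhe41dTomato-Cre+/-, that is, with 1 copy of a dTomato-Cre allele of Bhlhe41, a transcription factor gene. WT CCR2low and WT CCR2hi came from mice with no such allele. CCR2, the receptor for the chemokine CCL2, was the basis of the sort within each genotype. The labels give male C57BL/6N mice for all 12 libraries. The time after infarction, the age of the mice, the animals behind each library and the cells in which the allele is expressed are not stated in the labels, so the spread between libraries may be in part technical. Total counts ran from 17.7 to 20.83 M per library. Levels are given as counts or as CPM, the counts scaled to library sizes adjusted by TMM.

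Markers of the labels were read first. Xist, the RNA made from an inactive X chromosome, had 3699, 2983 and 2027 counts in Bhlhe41Cre CCR2low libraries and 1798, 1589 and 1403 in Bhlhe41Cre CCR2hi libraries. In WT it had 0, 0 and 0 counts in the CCR2low libraries and 3, 0 and 0 counts in the CCR2hi libraries. The labelled sex therefore went against Xist in all Bhlhe41Cre libraries, and sex and genotype cannot be told apart in any comparison of genotypes. Bhlhe41 itself averaged 21.1 ± 6.83 CPM in Bhlhe41Cre CCR2low and 35.9 ± 4.70 CPM in WT CCR2low, while its level in CCR2hi was 7.98 ± 1.35 CPM in Bhlhe41Cre CCR2hi and 37.4 ± 9.37 CPM in WT CCR2hi (SD, n = 3 each). Ccr2 transcripts averaged 76.8 ± 18.3 CPM in Bhlhe41Cre CCR2low and 77.3 ± 10.5 CPM in Bhlhe41Cre CCR2hi, and in WT 31.5 ± 12.03 CPM in CCR2low libraries and 65.6 ± 22.4 CPM in CCR2hi libraries. The 15 macrophage identity genes summed to between 30093 and 36806 CPM in the CCR2low libraries of both genotypes, against 2232 to 9404 CPM in the CCR2hi libraries. The 12 fibroblast genes ran the other way, with 2845 to 9502 CPM in CCR2low libraries against 36963 to 81762 CPM in CCR2hi libraries, so macrophage markers were low in the CCR2hi libraries although all were labelled macrophages.

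White fat cells store triglyceride in 1 large droplet and release fatty acids when other tissues need fuel. They also act as endocrine cells that secrete adiponectin (Adipoq), leptin (Lep), resistin in mice (Retn) and the complement protease adipsin (Cfd). Perilipin 1 (Plin1) and CIDEC coat the droplet and control its breakdown and growth. Fabp4 codes for a fatty acid carrier that is abundant in fat cells but is also made by capillary endothelial cells and by macrophages. Carbonic anhydrase 3 (Car3), the cytochrome P450 enzyme CYP2E1 (Cyp2e1) and the cytosolic PEP carboxykinase (Pck1) are enzymes that fat cells express highly. In fat cells Pck1 feeds glycerol synthesis. Cyp2e1 and Pck1 are not particular to fat cells and are also expressed in other tissues, among them liver. The heart is surrounded by fat depots on and around the pericardium.

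GENCODE mouse release 21 gives a position on GRCm38 (mm10) for all 10 genes, and 0 of them overlap another annotated gene. Adipoq (ENSMUSG00000022878) lies at chr16:23146536-23158028 on the plus strand and Cfd (ENSMUSG00000061780) at chr10:79890853-79892655 on the plus strand. Cyp2e1 (ENSMUSG00000025479) lies at chr7:140763739-140774987 on the plus strand and Lep (ENSMUSG00000059201) at chr6:29060220-29073877 on the plus strand. Promoter windows of 300 bases, from 250 bases before to 50 bases after the gene start, were found in RefSeq (GRCm38.p6) for 8 of the 10 genes. The RefSeq start lies 80 bases after the GENCODE start for Cyp2e1 and 1 base after it for Lep, and is the same for Adipoq and Cfd; positions in the windows are counted from the RefSeq start. Car3 and Fabp4 are the other two. The windows printed are those of the secreted protein with the highest level in WT CCR2low (Cfd), the fat cell hormone that names the group (Adipoq), the enzyme that follows Cfd in its excess in replicate 3 (Cyp2e1) and the hormone with no count (Lep). Each is written 5′ to 3′ along the gene, and capitals mark matches on either strand to the letters TATAAA or to CCAAT or to TTGCGCAA or to AGGTCA, searched for as core letters of promoters and of factors active in fat cells.
Adipoq, chr16:23146286-23146585, plus strand: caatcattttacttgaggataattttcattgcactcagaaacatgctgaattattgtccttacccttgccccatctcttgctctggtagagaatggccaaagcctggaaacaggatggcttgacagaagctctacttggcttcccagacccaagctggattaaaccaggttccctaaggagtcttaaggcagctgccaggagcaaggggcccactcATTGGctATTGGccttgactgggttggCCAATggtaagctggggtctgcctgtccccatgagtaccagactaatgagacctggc
Cfd, chr10:79890603-79890902, plus strand: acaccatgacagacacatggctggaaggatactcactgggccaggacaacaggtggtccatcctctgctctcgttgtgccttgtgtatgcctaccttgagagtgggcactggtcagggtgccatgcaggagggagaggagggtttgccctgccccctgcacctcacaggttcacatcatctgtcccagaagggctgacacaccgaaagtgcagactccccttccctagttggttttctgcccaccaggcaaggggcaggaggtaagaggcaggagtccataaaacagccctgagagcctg
Cyp2e1, chr7:140763569-140763868, plus strand: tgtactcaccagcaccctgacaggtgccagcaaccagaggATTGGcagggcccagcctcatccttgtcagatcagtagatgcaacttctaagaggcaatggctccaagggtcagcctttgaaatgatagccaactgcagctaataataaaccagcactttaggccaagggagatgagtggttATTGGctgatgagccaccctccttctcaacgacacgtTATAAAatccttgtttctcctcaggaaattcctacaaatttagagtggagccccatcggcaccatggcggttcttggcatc
Lep, chr6:29059971-29060270, plus strand: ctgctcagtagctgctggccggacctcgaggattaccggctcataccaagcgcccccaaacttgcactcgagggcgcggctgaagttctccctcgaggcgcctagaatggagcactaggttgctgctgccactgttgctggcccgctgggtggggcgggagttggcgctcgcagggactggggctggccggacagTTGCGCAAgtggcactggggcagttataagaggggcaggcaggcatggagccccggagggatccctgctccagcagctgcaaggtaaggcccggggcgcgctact

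Of 32851 RefSeq windows of this length, 13.6% hold TATAAA and 37.4% hold CCAAT, while 0.183% hold TTGCGCAA and 16.3% hold AGGTCA. The letters TATAAA, the core letters of a TATA box, was found in the window of 1 of the 8 genes, Cyp2e1, beginning 31 bases before the gene start. CCAAT was found for 2 genes. The Adipoq window holds it 7 bases before the start as written, and 27 and 34 bases before the start on the other strand. The Cyp2e1 window holds it 68 and 210 bases before the start, both on the other strand. TTGCGCAA, a sequence that C/EBP factors bind, was found for 1 gene, Lep, 55 bases before the start. AGGTCA, letters that nuclear receptors bind, was found in 0 of the 8. These are matches of letters in a short window and say nothing on binding.

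Among the secreted proteins, adipsin had the highest level in WT CCR2low on the length-corrected scale given further on. Cfd had 15, 6 and 3 counts in the Bhlhe41Cre CCR2low libraries 1, 2 and 3, 7, 2 and 5 counts in Bhlhe41Cre CCR2hi, 265, 508 and 12046 counts in WT CCR2low, against 4, 15 and 18 counts in WT CCR2hi. Adipoq had 11, 1 and 4 counts in Bhlhe41Cre CCR2low, 3, 3 and 3 in Bhlhe41Cre CCR2hi, 57, 144 and 1679 in WT CCR2low, against 2, 0 and 7 in WT CCR2hi. Each of the 3 WT CCR2low libraries exceeded all 9 other libraries for both genes, and within that group replicate 3 stood far above the other two. Retn, which codes for the hormone resistin, had 3, 0 and 5 counts in Bhlhe41Cre CCR2low, 4, 3 and 0 in Bhlhe41Cre CCR2hi, 12, 20 and 273 in WT CCR2low, against 0, 0 and 1 in WT CCR2hi. Lep, the leptin gene, had 0 counts in all 12 libraries, which allows up to 3 counts in a library.

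The genes of the lipid droplet coat had the same order of libraries. Cidec had 8, 1 and 1 counts in Bhlhe41Cre CCR2low, 3, 0 and 0 in Bhlhe41Cre CCR2hi, 41, 99 and 1445 in WT CCR2low, against 0, 1 and 2 in WT CCR2hi. Plin1 had 3, 3 and 0 counts in Bhlhe41Cre CCR2low, 0, 0 and 0 in Bhlhe41Cre CCR2hi, 84, 106 and 428 in WT CCR2low, against 0, 1 and 12 in WT CCR2hi. Plin1 differed less between the WT CCR2low libraries than Cidec did, and its highest value elsewhere was the 12 counts of WT CCR2hi replicate 3.

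The enzymes were read from all or nearly all libraries, except Pck1. Car3 had 17, 8 and 6 counts in Bhlhe41Cre CCR2low, 17, 5 and 7 in Bhlhe41Cre CCR2hi, 419, 917 and 4792 in WT CCR2low, against 18, 30 and 58 in WT CCR2hi. Cyp2e1 had 19, 23 and 9 counts in Bhlhe41Cre CCR2low, 51, 11 and 65 in Bhlhe41Cre CCR2hi, 135, 243 and 4940 in WT CCR2low, against 6, 4 and 7 in WT CCR2hi. Outside WT CCR2low, Cyp2e1 was lowest in WT CCR2hi, whose 3 libraries lay below all 6 Bhlhe41Cre libraries. Pck1 had 0, 1 and 1 counts in Bhlhe41Cre CCR2low, 0, 0 and 0 in Bhlhe41Cre CCR2hi, 97, 148 and 642 in WT CCR2low, against 0, 1 and 0 in WT CCR2hi.

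Fabp4 was the exception. It had 4899, 5433 and 3983 counts in Bhlhe41Cre CCR2low, 34816, 25050 and 25829 in Bhlhe41Cre CCR2hi, 3521, 3440 and 7829 in WT CCR2low, against 13362, 15658 and 18819 in WT CCR2hi. The CCR2hi libraries of both genotypes lay above all CCR2low libraries. WT CCR2low replicate 3 was again the highest of its group, but still below every CCR2hi library.

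**Figure D1:**
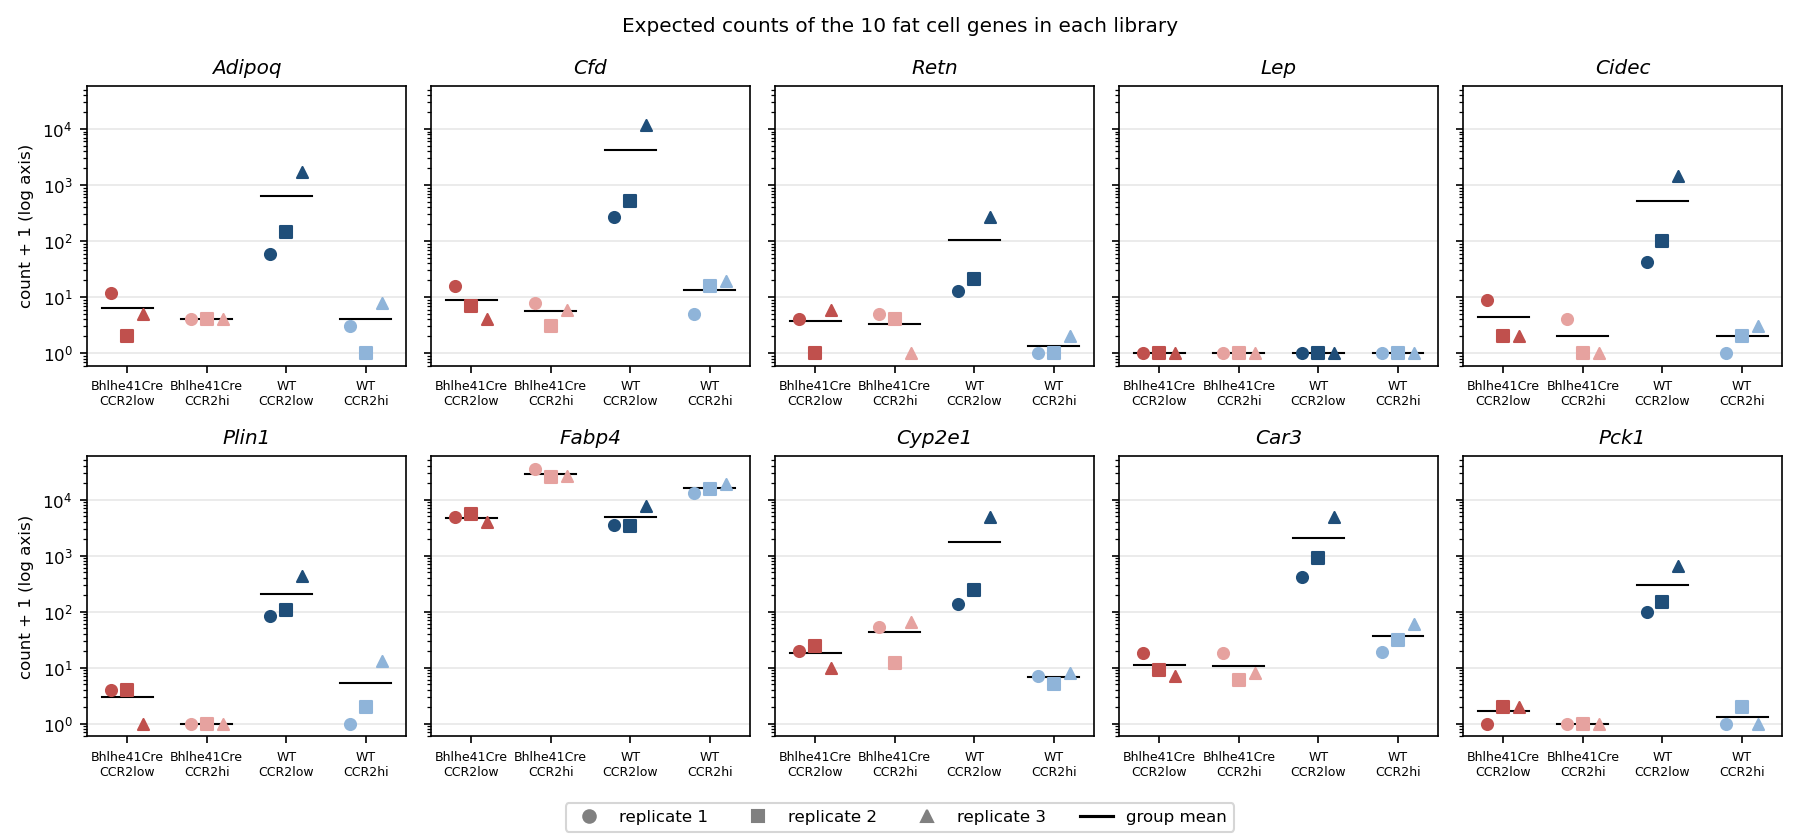
Expected counts of the 10 genes in each library, plotted as count + 1 on a log axis, with 1 panel per gene, a symbol per replicate and a line at the group mean. WT CCR2low replicate 3 is the highest library for 8 genes, up to 12046 counts for Cfd. Fabp4 is highest in the CCR2hi groups and Lep is at 0 throughout.

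The 8 genes without Fabp4 and Lep summed to 4.07, 2.35 and 1.70 CPM in Bhlhe41Cre CCR2low, 4.08, 1.15 and 4.12 CPM in Bhlhe41Cre CCR2hi, 59.1, 109.9 and 1338 CPM in WT CCR2low, against 1.48, 2.73 and 5.35 CPM in WT CCR2hi. For all 8, every WT CCR2low library exceeded each of the 9 others, replicate 3 was the highest of the 3, and replicate 2 had more CPM than replicate 1. Replicate 3 held between 69.3% (Plin1) and 93.97% (Cfd) of the counts of its group. On the deposited TPM scale (transcript abundance), which corrects for length and so allows genes to be compared, Cfd had 24.3, 47.0 and 1210 TPM in WT CCR2low replicates 1, 2 and 3. The next levels in replicate 3 were 745 TPM for Fabp4, 235 TPM for Car3, 217 TPM for Cyp2e1, 117 TPM for Adipoq and 77.95 TPM for Cidec. Retn had 27.8 TPM, Pck1 18.9 TPM and Plin1 18.0 TPM there. In replicate 1 the order was another: Fabp4 had 313 TPM, Cfd 24.3 TPM, Car3 20.2 TPM, Cyp2e1 5.36 TPM, Adipoq 3.47 TPM, Plin1 3.23 TPM, Pck1 2.57 TPM, Cidec 1.75 TPM and Retn 1.13 TPM.

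The excess of replicate 3 differed between genes. As a ratio of CPM to replicate 1, with a 95% interval for counting error only, it was 43.5 (38.5 to 49.4) for Cfd, 35.05 (29.5 to 41.9) for Cyp2e1 and 33.8 (24.8 to 47.2) for Cidec. Adipoq followed at 28.2 (21.7 to 37.4) and Retn at 21.8 (12.3 to 42.7). The ratio was lower for Car3, 10.95 (9.91 to 12.1), for Pck1, 6.34 (5.11 to 7.93), and for Plin1, 4.88 (3.85 to 6.24), whose intervals lie below those of the first 5 genes. Fabp4 was at 2.13 (2.05 to 2.22). Over 14709 genes with counts in all 3 libraries the median ratio was 0.975. Replicate 2 over replicate 1 gave smaller ratios, between 1.19 (0.887 to 1.61) for Plin1 and 2.39 (1.74 to 3.302) for Adipoq among the 8 genes, and 0.923 (0.880 to 0.967) for Fabp4. The intervals of Plin1 and Retn, 1.57 (0.733 to 3.53), include 1.

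Some other fat cell genes shared the excess. Of 66 further genes in 5 lists, 40 had an interval above 1 for replicate 3 over replicate 1, 4 an interval below 1 and 22 an interval that holds 1, with a median ratio of 1.30 over the 62 genes with a count in replicate 1. The lowest of the 4 were Cox8b, a cytochrome oxidase subunit of brown fat and muscle, at 0.513 (0.318 to 0.813), Cox7a1, another such subunit, at 0.677 (0.467 to 0.975) and Fasn, fatty acid synthase, at 0.708 (0.650 to 0.771). The intervals hold for counting error only, so well counted genes pass at small ratios, such as Cebpb at 1.036 (1.018 to 1.055). No such tally over all genes stands beside that of the 66, so nothing is read from it. The genes that follow, up to Pnpla2, were named for the size of their difference in replicate 3. Plin4, a droplet coat protein of white fat cells, had 35, 36 and 456 counts in WT CCR2low. Adrb3, the beta-3 adrenergic receptor of mouse fat cells, had 1, 2 and 82, and Adig, which codes for adipogenin, had 4, 1 and 88. Kcnk3, a potassium channel expressed in brown fat, had 43, 20 and 156. Klf15, a transcription factor gene induced in fat cell differentiation, had 16, 38 and 103. Pcx, the pyruvate carboxylase gene, had 188, 245 and 791, and Mlxipl, which codes for the carbohydrate-sensing factor ChREBP, had 100, 141 and 251. Pnpla2, the lipase that starts triglyceride breakdown, had 1953, 2083 and 5502. Pparg, the nuclear receptor that directs fat cell differentiation, was close to even, with a ratio of 1.09 (0.966 to 1.22) for replicate 3 over replicate 1. Of the 12 brown fat genes, Ucp1, the uncoupling protein of brown fat, had 4, 8 and 1 counts and Cidea 1, 6 and 17, while Prdm16 had 64, 80 and 92 and Letmd1 871, 852 and 855.

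Markers of neighbouring tissues did not move as one with these genes. Marco and Alox15, markers of macrophages of the body cavities, had 1689, 4049 and 8816 counts and 513, 808 and 3366 counts in WT CCR2low, and the 10 genes of that list summed to 426, 735 and 1453 CPM. Ratios for replicate 3 over replicate 1 were 4.999 (4.74 to 5.27) for Marco and 6.28 (5.72 to 6.91) for Alox15. Gata6, the factor that defines peritoneal macrophages, had 297, 280 and 291 counts. The 12 mesothelial genes summed to 215, 217 and 163 CPM, and Msln, a mesothelial surface protein, was at a ratio of 0.905 (0.828 to 0.989) and Upk3b, another, at 0.605 (0.552 to 0.663). Kap, a kidney gene that androgens induce, had 507, 487 and 413 counts, Umod, the tubule's uromodulin gene, 89, 105 and 70, and Slc34a1, its phosphate transporter, 82, 84 and 76. These 3 genes had 0 counts in all 9 other libraries, and in WT CCR2low they were lowest in replicate 3. The 10 genes of the liver list summed to 1000, 1110 and 1441 CPM. Among them Alb was at 0, 0 and 0 counts and Hp at 1194, 2528 and 8591. The 15 macrophage identity genes summed to 35924, 36806 and 32521 CPM. The part of other cells or tissues in the levels of the 8 genes was not tested, and in bulk libraries more cells of a type and more RNA per cell cannot be told apart.

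**Figure D2:**
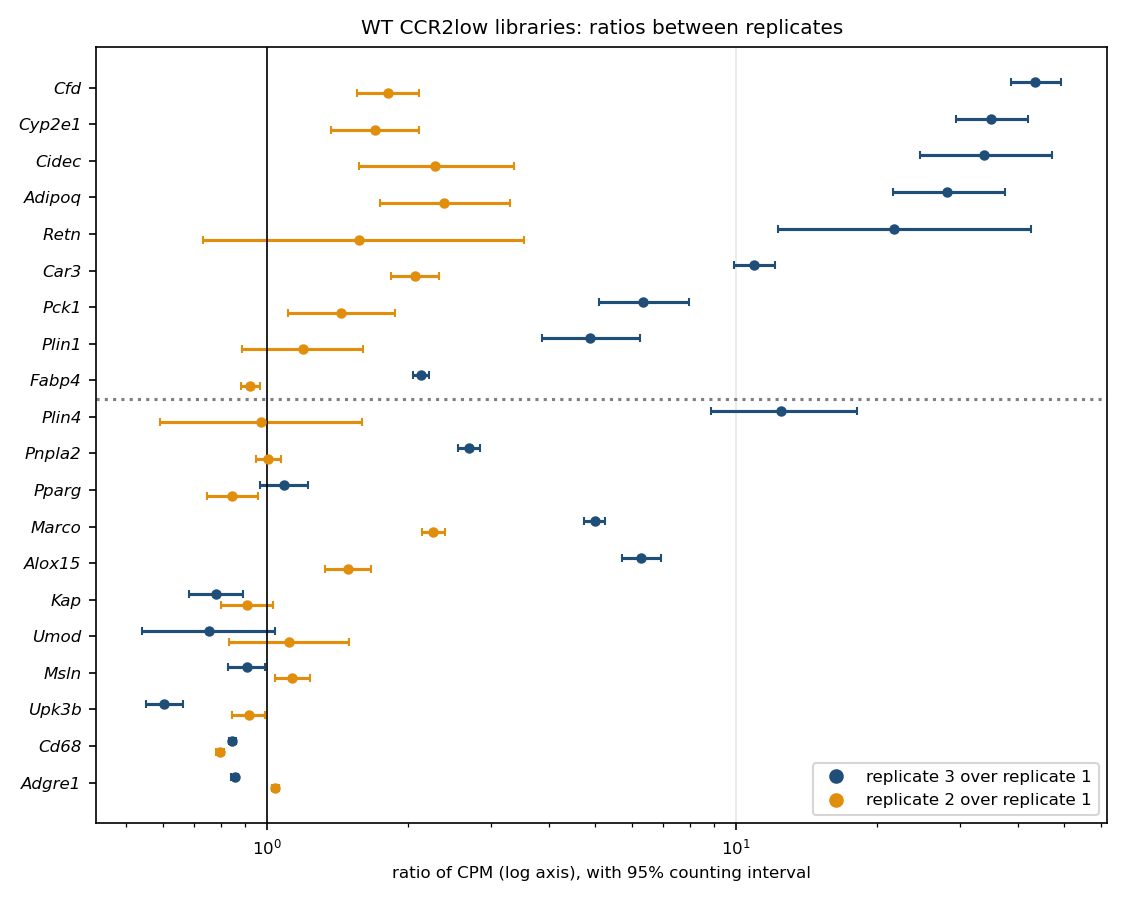
Ratios of CPM between WT CCR2low libraries on a log axis, with 95% intervals for counting error, for 9 fat cell genes (above the dotted line) and 11 other genes. Blue points give replicate 3 over replicate 1 and orange points replicate 2 over replicate 1. Cfd reaches 43.5 in blue, while the kidney gene Kap and the macrophage gene Cd68 are at 0.780 and 0.844.

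A wider search asked how many genes stood out in a single library. A gene counted when it had at least 5 CPM in a library and at least 4 times the CPM of both other libraries of its group. WT CCR2low replicate 3 had 31 such genes, 0.207% of the 14964 genes tested, and 8 of the 10 fat cell genes were among them, which the choice of the genes fixes in part. The other libraries had between 0 and 19, and none of the 10 genes stood out in any of them. The 23 other genes of replicate 3 included Plin4 and Mrap, an accessory protein of the ACTH receptor that fat cells express, with 48, 46 and 263 counts. Pdk4, which slows glucose oxidation, had 37, 76 and 663 counts, the lipase gene Ces1d 36, 40 and 621, and Cdo1, cysteine dioxygenase, 104, 153 and 1139. Acacb, an acetyl-CoA carboxylase gene, had 95, 122 and 521, and Agt, the angiotensinogen gene, 22, 29 and 198. Serpina3c had 26, 25 and 260 counts and Pon1, a lactonase gene best known from liver, 16, 29 and 134. These were named after their values were seen. Not all belong to fat cells: Ngp, a neutrophil granule gene, had 9, 2 and 234 counts, and the 8 genes of the neutrophil list, which does not hold Ngp, summed to 153, 211 and 208 CPM. Within that list Retnlg, a paralog of Retn, had 7, 33 and 101 counts, and its other genes are not given here singly.

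**Figure D3:**
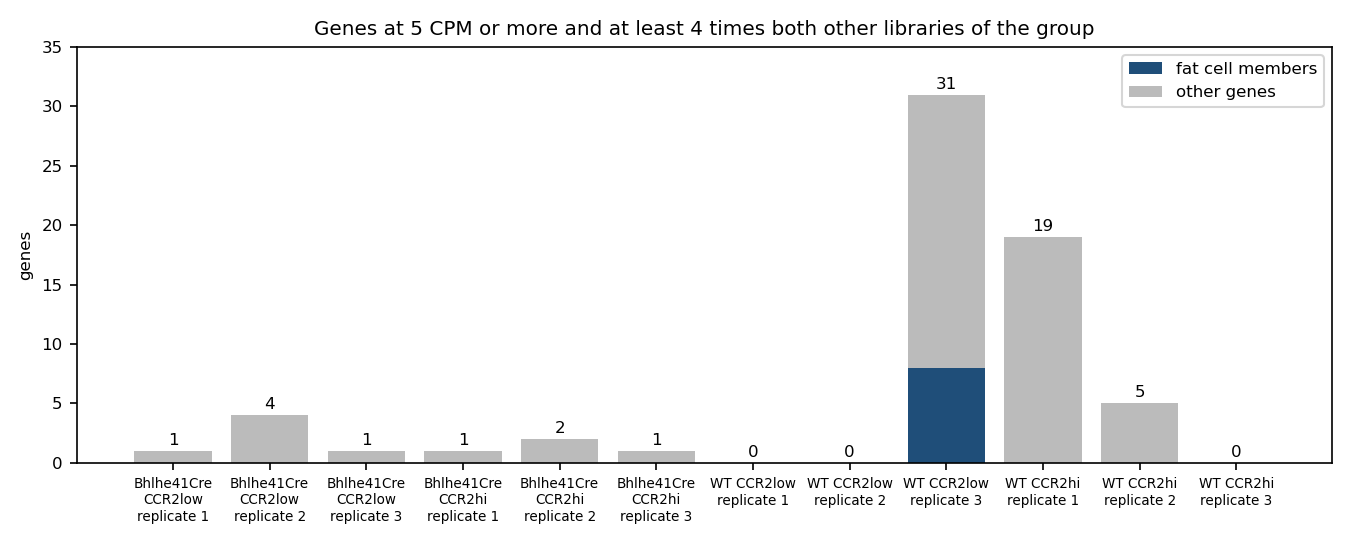
Number of genes in each library at 5 CPM or more and at least 4 times both other libraries of its group, with members of the 10 in blue and other genes in grey. WT CCR2low replicate 3 has 31 genes, of which 8 belong to the 10. No other library has one of the 10, and WT CCR2hi replicate 1 is next with 19 genes.

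Genes with a like pattern were found by the Pearson correlation of log2(CPM + 1) with the mean over the 9 members that had counts in at least 6 libraries. The closest of the genes tested included Pon1 (r = 0.995), Acsm3 (0.990), Ces1f (0.988), Clmn (0.960), Slc36a2 (0.944), Ppp1r1a (0.940), Aldh6a1 (0.940), Cdo1 (0.934) and Cyp2ab1 (0.933), over 12 libraries that fall into the 3 WT CCR2low libraries and the rest. Over the 9 libraries outside WT CCR2low, r was 0.373 for Pon1, 0.365 for Acsm3 and 0.017 for Ces1f. It was 0.261 for Cdo1, 0.168 for Cyp2ab1 and -0.212 for Slc36a2, so the likeness of all these genes rests on the WT CCR2low libraries. There r was 0.850 for Aldh6a1, 0.794 for Clmn and 0.649 for Ppp1r1a outside WT CCR2low. The mean includes Fabp4, which lies far above the other 8 members in those 9 libraries, and its part in these values was not tested. Acsm3 had 12, 17 and 98 counts in WT CCR2low and Ces1f 13, 36 and 210, with at most 1 count in any other library. Among the members, Fabp4 was the one whose correlations with the other 8 were negative, between -0.477 and -0.275, while those 8 correlated with each other at 0.869 to 0.997, which the choice of genes high in WT CCR2low fixes in large part.

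In Bhlhe41Cre, whose gates the choice of the genes did not use, the question was whether the fat cell genes differ between CCR2low and CCR2hi. The fit, however, took the spread of each gene from all 12 libraries, WT CCR2low included. Of the 9 genes that could be tested, 1 was called lower in CCR2low, Fabp4, and 0 were called higher, in an edgeR quasi-likelihood test over all genes with Benjamini-Hochberg adjustment. Across all genes, 54.1% were called in this comparison, 24.9% higher and 29.1% lower. At an unadjusted p under 0.05 the counts were the same, 0 higher and 1 lower, and DESeq2, limma-voom and limma-trend also called 0 higher and 1 lower. All 8 other genes passed the filter on low counts through WT CCR2low, where they are high, so their count of calls does not describe the 10 genes as such.

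Fabp4 averaged 264 ± 31.1 CPM in Bhlhe41Cre CCR2low and 1399 ± 244 CPM in Bhlhe41Cre CCR2hi (SD, n = 3 each), a log2 fold change of -2.40 ± 0.29 (SE, adjusted p = 1.04e-05). All 3 CCR2low libraries lay below all 3 CCR2hi libraries. Adipoq averaged 0.293 ± 0.272 CPM in CCR2low and 0.147 ± 0.006 CPM in CCR2hi (log2 fold change 0.98 ± 2.20, adjusted p = 0.732). Cfd averaged 0.436 ± 0.327 CPM in CCR2low and 0.230 ± 0.123 CPM in CCR2hi (0.93 ± 2.67, adjusted p = 0.790). Neither difference in mean CPM exceeded the SD in CCR2low. Both log2 fold changes turn negative under a scaling to macrophage genes, which moves the median of all genes by -2.01. Cyp2e1 averaged 0.934 ± 0.370 CPM in CCR2low and 2.11 ± 1.44 CPM in CCR2hi (-1.15 ± 1.51, adjusted p = 0.547), and the groups overlapped. Car3 averaged 0.566 ± 0.301 CPM in CCR2low and 0.472 ± 0.304 CPM in CCR2hi, with an adjusted p of 0.884, and Retn 0.152 ± 0.147 CPM in CCR2low and 0.112 ± 0.100 CPM in CCR2hi, with an adjusted p of 0.880. Cidec had 10 counts in CCR2low and 3 in CCR2hi, a ratio of 3.78 with a counting interval of 0.972 to 21.4 (adjusted p = 0.648). Plin1 had 6 counts in CCR2low and 0 in CCR2hi (adjusted p = 0.259), and Pck1 2 and 0, which allow no fold change. At these levels, at most 65 counts in a library, differences in the 8 genes were not detectable unless large. The SE and adjusted p of these genes also include the spread of WT CCR2low, where replicate 3 stood far above the other libraries.

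Fabp4 followed the gates as the endothelial genes did, a pattern that the fibroblast genes shared. The 10 endothelial genes summed to 568, 804 and 378 CPM in Bhlhe41Cre CCR2low, 3016, 2356 and 2570 in Bhlhe41Cre CCR2hi, 741, 717 and 863 in WT CCR2low, against 1693, 2934 and 2608 in WT CCR2hi. Fabp4 over that sum was 0.483 ± 0.127 in Bhlhe41Cre CCR2low and 0.526 ± 0.024 in Bhlhe41Cre CCR2hi, and 0.319 ± 0.124 in WT CCR2low and 0.346 ± 0.058 in WT CCR2hi (SD, n = 3 each). The ratio differed by less than its spread between gates in each genotype. In CCR2hi it was higher in Bhlhe41Cre, at 0.554, 0.508 and 0.518, than in WT, at 0.389, 0.280 and 0.368, with no overlap. In WT CCR2low it was 0.253, 0.241 and 0.462, highest in replicate 3. Whether endothelial RNA accounts for the Fabp4 level was not tested. Fabp5, the paralog that macrophages express, ran opposite to Fabp4: it rose in CCR2low against CCR2hi in Bhlhe41Cre, with 28189, 27293 and 39311 counts against 4509, 7191 and 6500 (log2 fold change 2.57 ± 0.26, adjusted p = 2.19e-06), though under a scaling to macrophage genes this was 0.56 (adjusted p = 0.0705). Fabp5 over Fabp4 was 6.88 ± 2.61 in Bhlhe41Cre CCR2low, 0.223 ± 0.083 in Bhlhe41Cre CCR2hi, 3.88 ± 1.63 in WT CCR2low and 0.122 ± 0.017 in WT CCR2hi.

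**Figure D4:**
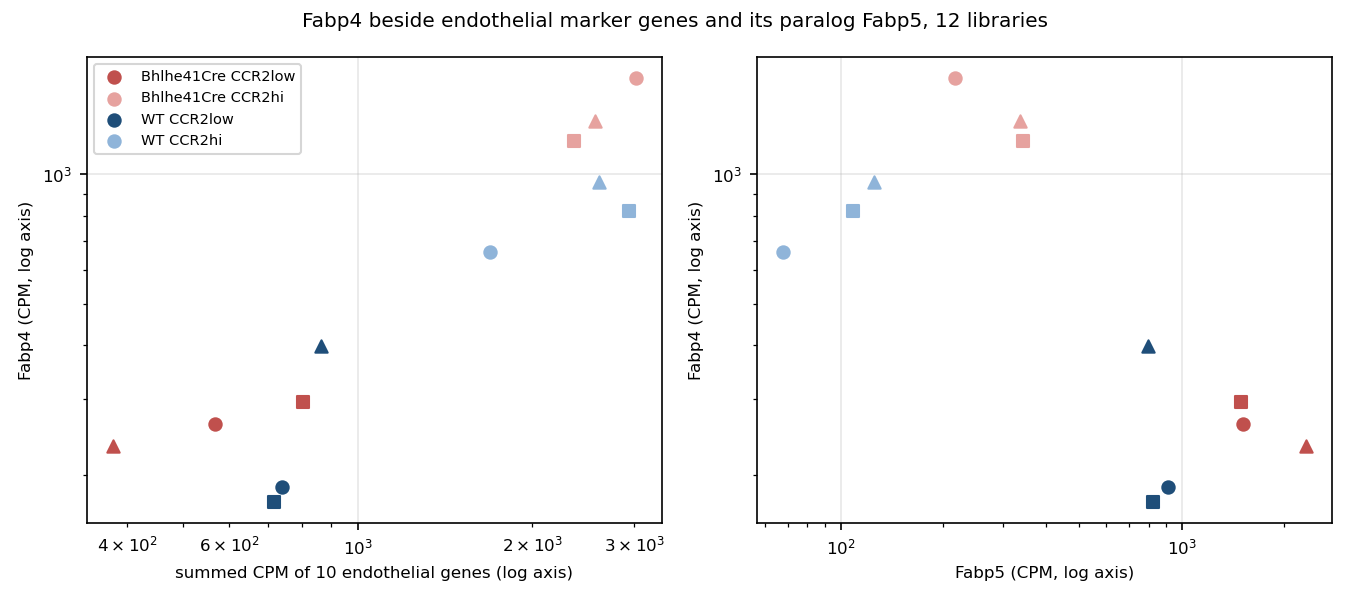
Fabp4 CPM against the summed CPM of 10 endothelial genes (left) and against Fabp5 CPM (right) in the 12 libraries, on log axes; colours give the group, and circles, squares and triangles replicates 1, 2 and 3. CCR2hi libraries are high in Fabp4 and in endothelial genes and low in Fabp5. WT CCR2low replicate 3 has 399 CPM of Fabp4 at 863 CPM of endothelial genes.

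Paralogs of the members, Fabp5 among them, were also read in Bhlhe41Cre. Of 22 listed, 18 were tested, and 3 rose and 10 fell in CCR2low against CCR2hi, which is 72.2% called beside 54.1% of all genes. Plin2, the droplet coat protein of macrophages and most other cells, had 36250, 31605 and 39799 counts in CCR2low against 8055, 9891 and 10966 in CCR2hi, a rise of 2.08 ± 0.18 on the log2 scale (adjusted p = 7.18e-07), which was 0.07 under a scaling to macrophage genes. Plin2 thus had 8055 counts or more in libraries where Plin1 had 3 or fewer. Retnlg, the resistin-like gene of neutrophils, fell, with 159, 108 and 98 counts in CCR2low against 1498, 515 and 560 in CCR2hi (-2.63 ± 0.59, adjusted p = 0.00219), and the neutrophil list summed to 250 to 293 CPM in CCR2low against 777 to 1179 CPM in CCR2hi. Car4 (-3.38 ± 0.49, adjusted p = 5.45e-05) and Car8 (-3.06 ± 0.23, adjusted p = 2.78e-07) fell. The mitochondrial Pck2 fell by 1.05 ± 0.17 (adjusted p = 0.000126). The adiponectin relatives C1qtnf1, C1qtnf2, C1qtnf3, C1qtnf6 and C1qtnf7 fell, from -2.33 ± 0.18 for C1qtnf1 to -3.92 ± 0.30 for C1qtnf2. Fabp3 fell by 0.66 ± 0.26 (adjusted p = 0.0429, and 0.0544 to 0.169 under the 7 alternatives that end the call, among them leaving out any 1 of 5 libraries), and Plin3 rose by 0.60 ± 0.16 (adjusted p = 0.00655) but was at -1.41 under a scaling to macrophage genes. Car5b (-0.84 ± 0.47, adjusted p = 0.145; 0.00527 without WT CCR2low replicate 3) and Car13 (0.44 ± 0.20, adjusted p = 0.0768; 0.0298 with the replicate number as a block, and 0.018 without WT CCR2hi replicate 1) did not pass.

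The wider fat cell program was read from 66 further genes in 5 lists, of which 54 were tested. In Bhlhe41Cre, 13 rose and 30 fell in CCR2low, or 79.6% called beside 54.1% of all genes, with a median log2 fold change of -1.14 against -0.01 over all genes. Under a scaling to macrophage genes these counts were 0 and 48, and that scaling moves the median of all genes by -2.01. Among fat cell identity genes, 1 of 12 rose and 9 fell, beside 24.9% and 29.1% of all genes. Sncg, a synuclein gene of fat and nerve cells, averaged 1.84 ± 0.338 CPM in CCR2low and 12.7 ± 2.43 CPM in CCR2hi (log2 fold change -2.78 ± 0.23, adjusted p = 4.90e-07). Aoc3, an amine oxidase gene of fat and smooth muscle cells, fell by 3.07 ± 0.28 (adjusted p = 9.41e-07) and Rbp4, the retinol carrier, by 3.33 ± 0.38 (adjusted p = 7.06e-06). Plin4 fell by 3.05 ± 1.21 (adjusted p = 0.0475), but 11 alternatives ended the call with an adjusted p of 0.0512 to 0.209, among them leaving out any 1 of the 6 Bhlhe41Cre libraries. The fibroblast, endothelial and cardiomyocyte lists fell in CCR2low as well, 12 of 12, 10 of 10 and 11 of 11 genes, and their part in the fall of the fat cell lists was not tested.

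In the other lists both directions occurred, as they did over all genes, of which 24.9% were called higher and 29.1% lower. Of 14 triglyceride synthesis genes, 4 rose and 7 fell: Scd1, a fatty acid desaturase, fell by 2.87 ± 0.26 (adjusted p = 1.07e-06), Me1, which supplies NADPH, by 2.18 ± 0.20 (adjusted p = 9.40e-07) and Fasn, fatty acid synthase, by 1.20 ± 0.16 (adjusted p = 3.13e-05). Mlxipl rose, with 25, 25 and 12 counts in CCR2low against 4, 4 and 4 in CCR2hi (2.502 ± 0.66, adjusted p = 0.00583), though not under a scaling to macrophage genes (0.55, adjusted p = 0.434). Pcx fell by 1.79 ± 0.44 (adjusted p = 0.00388, and 0.0507 with no filter) and Gpam, the first enzyme of glycerolipid synthesis, by 1.19 ± 0.29 (adjusted p = 0.00377). Of 12 lipolysis and insulin response genes, 3 rose and 5 fell. Mgll, which cleaves monoglycerides, fell by 3.07 ± 0.23 (adjusted p = 2.43e-07), G0s2, an inhibitor of PNPLA2, by 3.13 ± 0.28 (adjusted p = 9.40e-07), and Lepr, the leptin receptor, by 3.24 ± 0.48 (adjusted p = 7.50e-05). Lipe, hormone-sensitive lipase, fell by 1.40 ± 0.28 (adjusted p = 0.000882), while Pde3b, the insulin-activated phosphodiesterase, rose by 1.06 ± 0.22 (adjusted p = 0.00116; -0.92 under a scaling to macrophage genes). Pnpla2 was at 0.75 ± 0.32 (adjusted p = 0.0644, 0.0108 with the replicate number as a block, and 0.003 without WT CCR2low replicate 3; -1.26 under a scaling to macrophage genes).

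Of 9 transcription factors of fat cell formation, 3 rose and 5 fell in CCR2low, again beside 24.9% and 29.1% of all genes. Cebpd, an early C/EBP factor, fell by 2.59 ± 0.14 (adjusted p = 8.07e-08), Ebf2, a factor of fat cell precursors, by 4.26 ± 0.46 (adjusted p = 4.45e-06), Zfp423 by 2.33 ± 0.30 (adjusted p = 1.80e-05) and Klf15 by 2.97 ± 0.71 (adjusted p = 0.00295). Nr1h3, the oxysterol receptor LXR alpha of macrophages and fat cells, rose by 1.38 ± 0.16 (adjusted p = 9.43e-06; -0.64 under a scaling to macrophage genes). Of 7 brown fat genes tested, 2 rose and 4 fell. Dio2, the thyroid hormone deiodinase, fell by 2.73 ± 0.31 (adjusted p = 7.28e-06) and Prdm16 by 1.89 ± 0.24 (adjusted p = 1.94e-05). Letmd1 rose by 0.84 ± 0.14 (adjusted p = 0.000227; -1.17 under a scaling to macrophage genes), and Kcnk3 fell by 2.39 ± 0.94 (adjusted p = 0.0463), a call that 9 alternatives ended with an adjusted p of 0.0506 to 0.171, leaving out any 1 of 6 libraries among them. Cidea and Otop1 were below the filter.

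The gates in WT were compared as a description. The 8 genes were higher in CCR2low by factors that rest on few counts in CCR2hi: Adipoq had 1880 counts in WT CCR2low and 9 in WT CCR2hi, a ratio of 211 (counting interval 111 to 463), and Cfd 12819 and 37, a ratio of 351 (254 to 498). Plin1 had 618 and 13 counts (48.1, 27.9 to 90.8) and Car3 6128 and 106 (58.5, 48.3 to 71.6), while Pck1 had 887 and 1 (897, 161 to 35484). Without replicate 3, the mean of WT CCR2low was 5.14 CPM for Adipoq against 31.97 ± 46.5 CPM with it, 19.8 against 218 ± 343 CPM for Cfd, 9.70 against 90.4 ± 140 CPM for Cyp2e1, 3.58 against 26.95 ± 40.5 CPM for Cidec, and 4.90 against 10.5 ± 9.78 CPM for Plin1. The WT CCR2hi means were 0.152, 0.634, 0.287, 0.051 and 0.221 CPM for these 5 genes, so all 8 genes stayed more than 2-fold higher in CCR2low without it. Fabp4 ran the other way, with 253 ± 127 CPM in the CCR2low libraries of WT and 813 ± 150 CPM in the CCR2hi libraries. Past a 2-fold difference in this comparison lay 8 of the 9 genes higher and 1 lower, and 15.5% of all genes higher and 22.8% lower. Nothing is read from the members' counts, since the WT gates chose the genes. Of the 54 other fat cell genes, 19 were called higher, beside 29.8% of all genes, and 18 lower, beside 30% of all genes (59.8% called in all), and 3 higher and 49 lower under a scaling to macrophage genes.

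The genotypes share these WT libraries and are likewise described. In CCR2low, the 8 genes were more than 2-fold lower in Bhlhe41Cre than in WT, beside 15.4% of all genes, and 0 were more than 2-fold higher, beside 8.94%. Of the 8, 8 remained so without WT CCR2low replicate 3. Adipoq had 16 counts in Bhlhe41Cre and 1880 in WT, and Cfd 24 and 12819. On these summed counts WT was higher by 109-fold (counting interval 66.9 to 191) and 495-fold (333 to 773). The intervals leave out the spread between libraries. Without replicate 3 the WT CCR2low means were 5.14 CPM for Adipoq and 19.8 CPM for Cfd, against 0.293 and 0.436 CPM in Bhlhe41Cre CCR2low. Fabp4 was at 264 ± 31.1 CPM in Bhlhe41Cre CCR2low and 253 ± 127 CPM in WT CCR2low, within the spread. In CCR2hi, 2 of the 9 genes were more than 2-fold higher in Bhlhe41Cre, beside 7.89% of all genes, and 4 more than 2-fold lower, beside 7.91%. Nothing is read from these counts, since Retn had 7 counts in Bhlhe41Cre CCR2hi and 1 in WT CCR2hi, Plin1 0 and 13, and Pck1 0 and 1. Cyp2e1 had 127 counts in Bhlhe41Cre CCR2hi and 17 in WT CCR2hi, a ratio of 7.20 (counting interval 4.32 to 12.7). Its libraries did not overlap, the nearest being at 11 and 7 counts. Car3 had 29 and 106 counts, a ratio of 0.264 (0.168 to 0.401), again with no overlap, the nearest at 17 and 18. These intervals too leave out the spread between libraries. Fabp4 averaged 1399 ± 244 CPM in Bhlhe41Cre CCR2hi and 813 ± 150 CPM in WT CCR2hi, a ratio of 1.73, and its libraries did not overlap. Over the 4 groups the order of Fabp4 was Bhlhe41Cre CCR2hi, WT CCR2hi, Bhlhe41Cre CCR2low and WT CCR2low, and the last 2 did not differ beyond their spread.

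The other fat cell genes of the lists gave 3 calls higher and 38 lower in Bhlhe41Cre against WT in CCR2low, or 75.9% beside 43% of all genes, and 9 higher and 8 lower in CCR2hi, or 31.5% beside 32.1%. Without WT CCR2low replicate 3, the counts in CCR2low were 1 higher and 32 lower. Some lists of other cell types were lower in Bhlhe41Cre CCR2low too, where 26.7% of all genes were called lower. Called lower were 11 of 11 cardiomyocyte, 7 of 11 mesothelial, 7 of 12 fibroblast and 4 of 6 skeletal muscle genes. So were 6 of 10 cavity macrophage, 2 of 3 liver and 3 of 10 endothelial genes. Of the macrophage identity genes 0 of 15 were, and of the neutrophil genes 0 of 8. The kidney tubule list gave 8 of 8, but Kap, Umod and Slc34a1 had no count outside WT CCR2low. They passed the filter through that group alone, so nothing is read from the kidney count. In sum, the kidney tubule list was at 4.70 to 5.02 CPM in Bhlhe41Cre CCR2low against 53.8 to 58.1 CPM in WT CCR2low, and the fat cell identity list at 15.7 to 27.1 CPM against 57.3 to 142.6 CPM. Their part in the genotype difference of the fat cell genes was not tested.

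**Figure D5:**
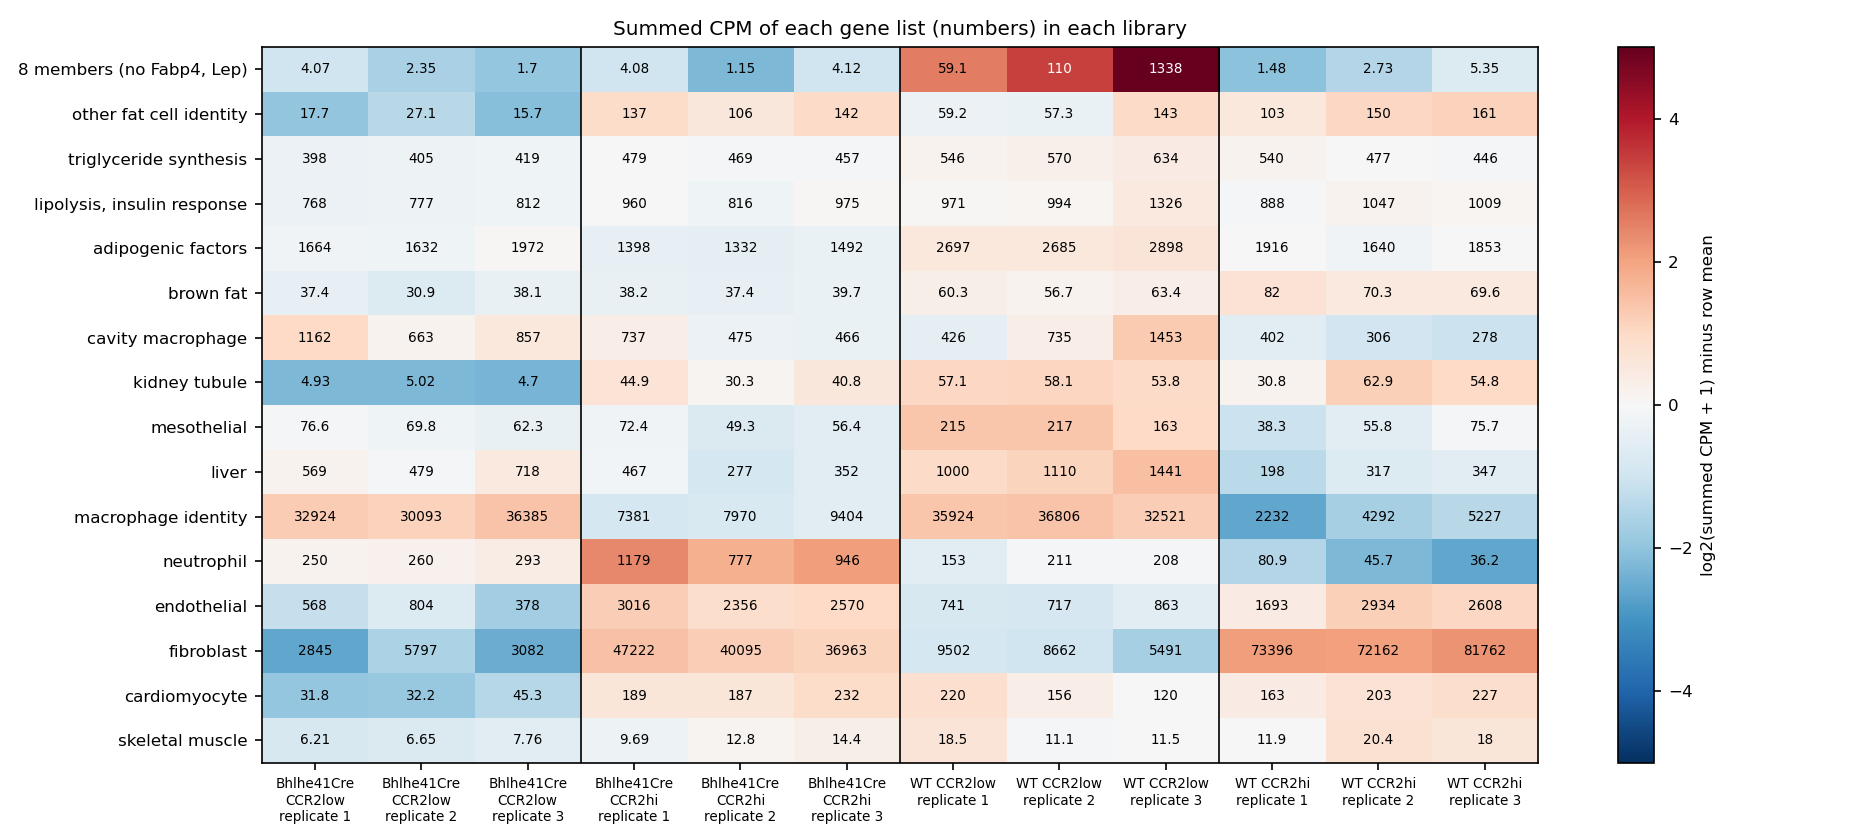
Summed CPM of each gene list in each library (numbers), coloured by log2(summed CPM + 1) minus the mean of its row, with Bhlhe41Cre groups left of WT groups. The 8 fat cell genes are at 1338 CPM in WT CCR2low replicate 3 and at most 5.35 CPM outside WT CCR2low. Over WT CCR2low replicates 1, 2 and 3 the mesothelial sum is 215, 217 and 163 CPM and the kidney tubule sum 57.1, 58.1 and 53.8 CPM.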

How the data were processed

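Bulk RNA sequencing was done on 12 libraries of sorted mouse heart macrophages, 4 groups of 3. Per the submitters' processing notes, the tools were CASAVA 1.8, STAR 2.4.0j and RSEM, and the build mm10. The annotation behind the counts is not given in the sources used here. RSEM divides reads shared by similar genes by estimate. The authors deposited expected counts per gene, which are whole numbers in the table, and TPM, which are scaled for length by the authors. The Bhlhe41Cre columns carry another name (KD) in both tables and were assigned by their gate and number. Because the other label fields of those samples hold values of a neighbouring field, the title gave the group.

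Counts were analysed in R 4.3.3 with edgeR 4.0.16 (TMM, filterByExpr, robust quasi-likelihood fit of 4 group means, 8 residual degrees of freedom). Of 53801 genes, 27248 had no count and 14964 were tested. P-values were two-sided and adjusted over the 14964 genes by Benjamini-Hochberg, with a threshold of 0.05, and the common biological coefficient of variation was 18.9%. Of the symbols, 124 belong to several genes, and the row with the highest total was used. The members and all gene lists were chosen with earlier results of these data known. Members were tested between the gates of Bhlhe41Cre alone. The 10 members, paralogs at 5 CPM or more, up to 3 genes per list by p in Bhlhe41Cre and up to 3 by the excess of WT CCR2low replicate 3, and the 10 genes of most like pattern were named, except 1 of these 10 that is not reported here. On simulated data at the sizes of the Bhlhe41Cre comparison the fit was also checked, with the common coefficient of variation for every gene. That check does not cover genes of wider spread, such as the 8 members without Fabp4 and Lep. Intervals for ratios are exact 95% counting intervals. Like the floor of 3 counts, they hold for counting error alone, because the counts are of reads and not of molecular identifiers.

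Whether equal replicate numbers mark paired libraries was checked by correlating residuals. Between the Bhlhe41Cre gates these were 0.227, 0.119 and 0.396, all above 0.1, so those numbers were taken to pair libraries. For CCR2low replicate 2, however, a CCR2hi library of another number correlated more. The adjusted p-values given are those of the fit without the block, except where the block is named. They were -0.064, 0.028 and -0.048 between the WT gates, which does not exclude pairs there, since the labels do not state the animals. Alternatives were other scalings, filters, tools (DESeq2 1.42.0, limma 3.58.1) and leaving out each library. Scaling to macrophage genes used the summed counts of the 15 macrophage identity genes as library size.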

Additional observations from a re-analysis of the deposited data

How the results depend on the processing

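In Bhlhe41Cre, Fabp4 was called lower in CCR2low under each of the scalings, filters, tools and left-out libraries tried. The other 8 members gave no call under any, but at 0 to 65 counts in a library they could hardly give one, so this says nothing on stability. With the replicate number as a block, members there were again 0 higher and 1 lower, other fat cell genes 14 higher and 30 lower, and all genes called 8244 against 8094. The block changed the call of 2 named genes, Pnpla2 (adjusted p = 0.0108) and Car13 (0.0298). In the other comparisons the residual correlations were not all above 0.1, so the numbers were not taken to pair libraries. Pairs between the WT gates are not excluded by this. The block gave 9052 calls between WT gates, 6099 between genotypes in CCR2low and 4473 in CCR2hi, against 8949, 6441 and 4808.

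Scaling to macrophage genes moved the other fat cell genes called to 3 higher and 49 lower between WT gates, 0 and 48 between Bhlhe41Cre gates, 1 and 25 between genotypes in CCR2low, and 1 and 40 in CCR2hi. It moves the median of all genes by -3.34, -2.01, 0.08 and -1.23 in these comparisons. Under it the Bhlhe41Cre gate differences turned to -0.99 for Adipoq, -1.04 for Cfd, -1.60 for Retn, -0.11 for Cidec, -1.74 for Car3, -1.26 for Pnpla2, -0.92 for Pde3b, -0.64 for Nr1h3, -1.17 for Letmd1, -1.41 for Plin3 and -1.58 for Car13 on the log2 scale. Scaling by library size alone gave 8 other fat cell genes higher between Bhlhe41Cre gates. limma-trend on log2(TPM + 1) gave 5 there, 1 higher between genotypes in CCR2low and 2 in CCR2hi, and no filter gave 4 in CCR2hi. Members more than 2-fold higher in CCR2hi between genotypes were 1 under the stricter filter, 1 in a fit of the 2 groups alone and 1 under limma-trend, and members lower were 1 in the fit of 2 groups and 1 under limma-trend.

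Leaving out 1 library gave 8 to 15 other fat cell genes higher and 27 to 30 lower between Bhlhe41Cre gates, 16 to 20 and 15 to 20 between WT gates, 1 to 5 and 31 to 40 between genotypes in CCR2low, and 4 to 10 and 6 to 11 in CCR2hi. Members more than 2-fold higher were 2 to 3 and lower 3 to 5 in CCR2hi. Without single libraries the Bhlhe41Cre gate difference ran from -0.046 to 1.47 for Adipoq (lowest without CCR2low replicate 1), from -0.43 to 0.96 for Retn (CCR2low replicate 3) and from -0.25 to 0.94 for Car3 (CCR2low replicate 1). Of the values for single genes, 1004 kept their direction and their side of the threshold, 32 lost their call, 15 gained one and 16 turned round. The genes set apart in WT CCR2low replicate 3 were 117 at 2 times the others, 13 at 8 times, with 5 members, and 55 from 1 CPM. The cause of these shifts was not tested. Depth limits the 8 members outside WT CCR2low, where they had 0 to 65 counts.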

Other observations

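Other libraries were set apart by other genes, chosen here after their values were seen. In WT CCR2hi replicate 1 the 19 genes included Il6 at 380 CPM, the pentraxin gene Ptx3 at 332 CPM and Hk2, a hexokinase gene, at 307 CPM, with immunoglobulin genes such as Igkc at 82.6 CPM. In Bhlhe41Cre, the beta-globin gene Hbb-bt and Alas2, a heme synthesis gene of red cell precursors, stood out in replicate 2 of both gates: Hbb-bt was at 48.4 CPM in the CCR2low library and 177 CPM in the CCR2hi library, and Alas2 at 17.5 CPM in CCR2low against 42.7 CPM in CCR2hi. Gdf3, a TGF-beta family ligand gene, stood out in replicate 3 of both gates, at 189 CPM in CCR2low against 30.7 CPM in CCR2hi. None of the fat cell members stood out in these libraries.

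Leptin was listed at 0 in every library while its receptor was read. Lepr averaged 1.35 ± 0.868 CPM in Bhlhe41Cre CCR2low and 12.9 ± 1.94 CPM in Bhlhe41Cre CCR2hi, and in WT 0.931 ± 0.379 CPM in CCR2low libraries and 6.76 ± 3.81 CPM in CCR2hi libraries (SD, n = 3 each).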
